A study of Arabidopsis thaliana with 72 samples.

Results

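Root and shoot transcripts of Arabidopsis thaliana were compared under low atmospheric pressure, in plants that were all at 10 kPa. Every array at that pressure was taken, 36 of the 72 in the series, and no array of the 97 kPa controls was used. The arrays fell into 12 groups of 3, root and shoot at 1, 3, 6, 12, 48 and 72 h, so 18 root arrays were set against 18 shoot arrays with every time weighted equally. All plants were wild type of the accession Wassilewskija (WS), 10 days old when moved, and were held under constant light. The chamber atmosphere held 2.1 kPa oxygen and 0.05 kPa carbon dioxide with nitrogen as the rest, in all 12 groups. No untreated organ enters here, so the values describe how the organs differed at 10 kPa and not how either responded to it. Each replicate came from its own chamber and was a tube of about 12 pooled plants, later cut into root and shoot. The shoot sample was everything above the root, hypocotyl included.

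As background, roots anchor the plant, take up water and ions, and build root hairs, an endodermal barrier and new meristems without photosynthesis. Shoots carry the chloroplasts, whose photosystems, electron transport chain and Calvin cycle fix carbon and feed the root with sugar. When oxygen is scarce, group VII ethylene response factors, which are otherwise destroyed through their oxidised N-terminus, switch on a core set of genes for fermentation and low-oxygen metabolism in many plant organs. Illuminated green tissue makes its own oxygen, whereas roots depend on supply from outside.

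Signals were MAS5 intensities from ATH1 whole-genome expression arrays, and in the deposited values every array has the same trimmed mean. Values are given as signal, and differences as root minus shoot on the log2(signal + 8.77) scale, as the mean of the 6 times with its standard error (SE) from the fit. Adjusted p-values come from limma with Benjamini-Hochberg adjustment over all 17027 probe sets tested, and a gene is called higher in an organ where the adjusted p was below 0.05. The deposited table has no detection call, so a low signal is given as a value and not as absence. In whole-organ RNA, fewer cells of a type and less RNA per cell cannot be told apart. The median log2 ratio of 3′ to 5′ control probe sets, a measure of RNA quality, was 3.97 in roots (range 3.46 to 5.86) and 2.81 in shoots (range 2.08 to 3.97), and 8 of 18 root arrays lay at or below the highest shoot array. The lowest correlation of an array with another of its group was 0.869 in roots, at 72 h, and 0.928 in shoots.

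The organ was the main divide in these arrays. Of 17027 probe sets tested, 13703 (80.5%) differed between root and shoot over the 6 times, 8772 (51.5%) with root higher and 4931 (29.0%) with shoot higher. Against a minimum of 2-fold, 4726 (27.8%) passed, 2626 (15.4%) in roots and 2100 (12.3%) in shoots. At 4025 probe sets (23.6%) the 18 root values and the 18 shoot values did not overlap at all, 2356 (13.8%) with root higher and 1669 (9.80%) with shoot higher. A difference over 32-fold was estimated for 141 probe sets in roots and 99 in shoots. Per probe set, organ took a median of 46.2% of the variance, time 11.1%, their interaction 7.20% and replicates 25.1%.

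The majority in favour of roots depended on scaling. The median difference of all tested probe sets was 0.29, and after quantile normalization it was 0.09. Under quantile normalization 7339 probe sets (43.1%) were called higher in roots and 5967 (35.0%) in shoots, so that roots held 55.2% of the calls in place of 64.0%. Small differences in either direction are therefore read below against that median. With the 3′ to 5′ ratio as a covariate, 9906 probe sets were called, 6362 in roots and 3544 in shoots.

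**Figure D1:**
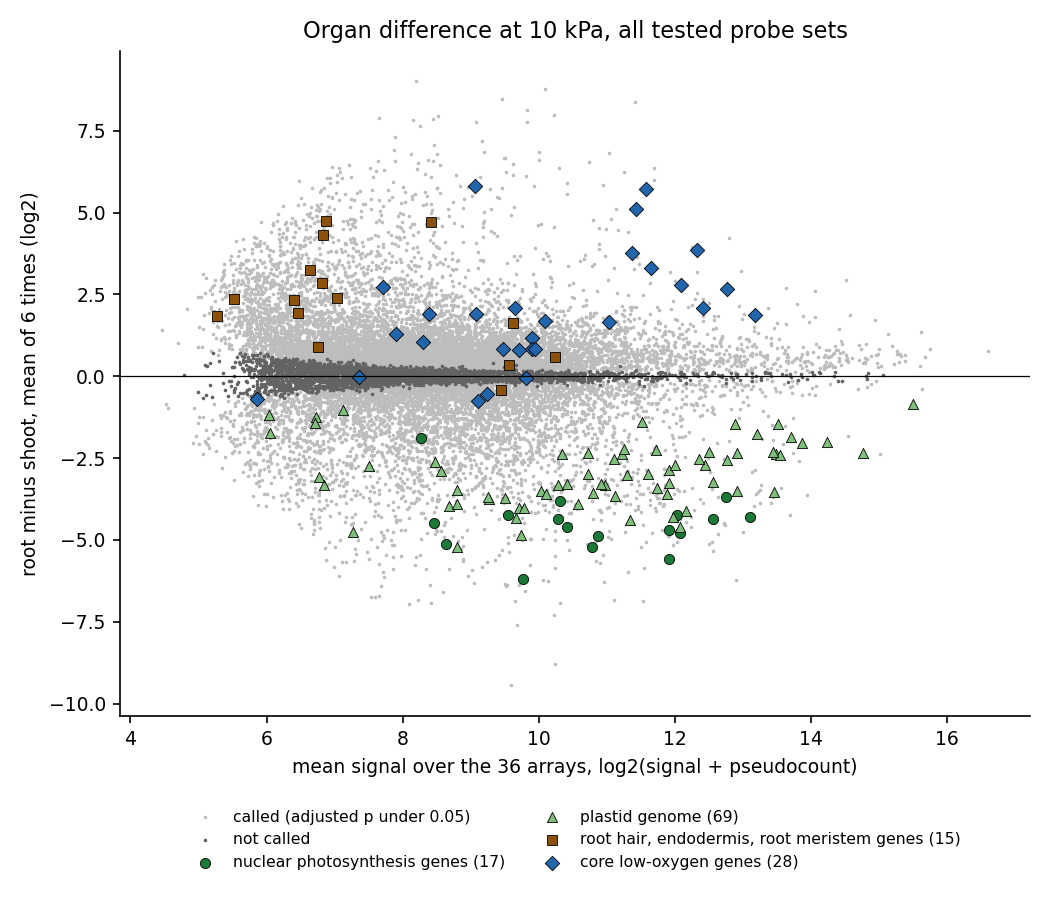
Each point is a probe set, with its mean log2(signal + pseudocount) over the 36 arrays on the x axis and its root minus shoot difference (log2, mean of 6 times) on the y axis. The 17 nuclear photosynthesis genes and 69 plastid genome probe sets all lie below 0, 14 of the 15 root marker genes lie above it, and most of the 28 core low-oxygen genes lie above it.

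Among genes with a published symbol, the largest root excess at the pseudocount of 8.77 was that of PDF2.5, a member of the plant defensin family of small cysteine-rich peptides. Its signal lay between 4619 and 15337 in roots with a median of 11458, and between 46.8 and 166 in shoots with a median of 91.7, and the organs did not overlap (root minus shoot 6.60 ± 0.13, adjusted p = 5.11e-30). SBT4.12, a subtilisin-like protease, lay between 1389 and 3982 in roots with a median of 2659.8, and between 2.33 and 90.1 in shoots with a median of 28.8, again without overlap (6.33 ± 0.18, adjusted p = 3.00e-25). Cell wall genes followed. HRGP1, a hydroxyproline-rich glycoprotein, reached medians of 10168 and 167 (5.92 ± 0.13, adjusted p = 2.09e-28), although its probe set can also bind near-identical copies and its level is uncertain. TBL30, of the family that acetylates wall polysaccharides, had medians of 1228 and 41.5 (4.55 ± 0.16, adjusted p = 2.84e-23). GH9C1, an endoglucanase of root hairs, had medians of 493 and 16.0 (4.30 ± 0.24, adjusted p = 1.59e-17).

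Regulators were also among the most root-biased genes. The MADS-box factor AGL21, known from lateral root development, lay between 543 and 1036 in roots with a median of 678, and between 0.694 and 7.83 in shoots with a median of 2.21 (5.97 ± 0.12, adjusted p = 1.42e-29). ATC, a relative of the floral repressor TFL1, lay between 380.2 and 1504 in roots with a median of 707, and between 1.84 and 43.9 in shoots with a median of 5.14 (5.69 ± 0.16, adjusted p = 9.13e-26). UPB1, a bHLH factor that sets the balance of peroxidases between root division and elongation zones, lay between 241 and 1008 in roots with a median of 621, and between 1.22 and 57.0 in shoots with a median of 15.1 (4.75 ± 0.21, adjusted p = 3.38e-20). All these shoot values were low, so the size of the fold depends on the pseudocount. The difference of AGL21 was 8.09 without one and 3.83 with 49.9, and that of ATC 7.07 and 3.88. PDF2.5 lay at 6.73 without one, below both, and at 6.11 with 49.9. The organs did not overlap at any of these 3 genes.

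PYK10, the beta-glucosidase that fills endoplasmic reticulum bodies in Brassicaceae roots, had its own signal in shoots and was still far apart between the organs. It lay between 22064 and 44137 in roots with a median of 30479, and between 883 and 2647 in shoots with a median of 1731 (4.22 ± 0.09, adjusted p = 6.94e-29). FACT, an acyltransferase that makes the alkyl caffeates of root waxes, lay between 1197 and 3263 in roots with a median of 1594, and between 22.4 and 119 in shoots with a median of 56.2 (4.72 ± 0.11, adjusted p = 5.96e-28). OSM34, an osmotin-like protein, lay between 2296 and 5752 in roots with a median of 3099, and between 12.7 and 559 in shoots with a median of 68.1 (5.02 ± 0.20, adjusted p = 3.24e-21). For ARLA1B, a small GTPase of the ARF-like family, the medians were 1912 and 51.2 (5.22 ± 0.17, adjusted p = 1.12e-23). The organs were apart on all 36 arrays for every gene named so far, a property that the choice of leading genes required.

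Locus-only genes gave still larger root differences. AT3G28550 lay between 4148 and 11425 in roots with a median of 6911, and between 1.1 and 18.7 in shoots with a median of 2.84 (9.02 ± 0.14, adjusted p = 2.71e-32), and its difference was 6.95 with the higher pseudocount. AT2G16005 lay between 7212 and 29143 in roots with a median of 15187, and between 3.77 and 158 in shoots with a median of 51.3 (8.12 ± 0.21, adjusted p = 6.83e-27). AT3G58550 had medians of 20792 and 69.1 (7.97 ± 0.16, adjusted p = 1.78e-29). AT1G26250 had medians of 5707 and 16.7 (7.95 ± 0.22, adjusted p = 1.28e-25). AT4G30170 completed the leading 5, with a difference of 7.85 ± 0.22, or 6.28 with the higher pseudocount. The annotation used here gives these loci no symbol, and no role is assigned to them.

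**Figure D2:**
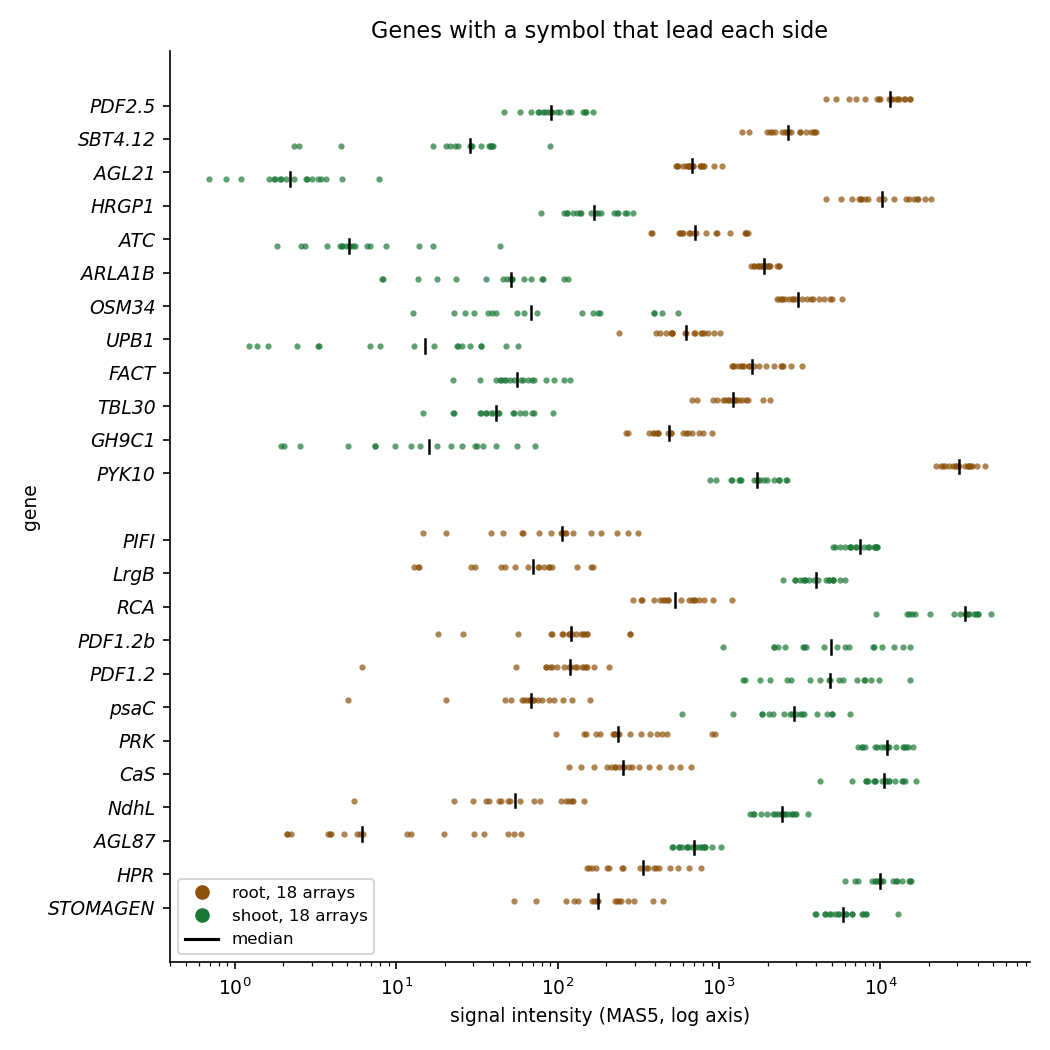
Signal intensity (log axis) of the 12 root-biased and 12 shoot-biased genes with a symbol that lead the organ difference, 18 root and 18 shoot arrays as points for each gene. In every gene shown the points of the organs are separate, which the choice of leading genes required. PYK10 lay between 883 and 2647 in shoots and between 22064 and 44137 in roots.

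On the shoot side, the leading genes with a symbol were mostly of the chloroplast. PIFI, a chloroplast protein tied to NDH-dependent electron transport, lay between 14.6 and 317 in roots with a median of 106, and between 5104 and 9572 in shoots with a median of 7508 (-6.19 ± 0.15, adjusted p = 1.86e-27). LrgB, the glycolate and glycerate carrier of the chloroplast envelope in photorespiration, lay between 12.9 and 165 in roots with a median of 70.8, and between 2494 and 6017 in shoots with a median of 3989 (-5.92 ± 0.18, adjusted p = 1.53e-24). RCA, the activase that frees Rubisco from bound sugar phosphates, lay between 293 and 1197 in roots with a median of 533, and between 9355 and 48162 in shoots with a median of 33489 (-5.58 ± 0.12, adjusted p = 4.30e-29). None of these overlapped between organs, which the choice of leading genes required here too. CaS, the thylakoid calcium-sensing protein, had medians of 256 in roots and 10503 in shoots (-5.14 ± 0.11, adjusted p = 7.30e-29). HPR, the peroxisomal hydroxypyruvate reductase of photorespiration, had medians of 340.5 and 10001 (-5.02 ± 0.10, adjusted p = 9.56e-30).

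Others of the leading shoot genes belonged to defence, stomata and gene regulation. The jasmonate- and ethylene-responsive defensin PDF1.2 lay between 6.17 and 209.6 in roots with a median of 119.6, and between 1402 and 15338 in shoots with a median of 4840.1 (-5.30 ± 0.21, adjusted p = 2.80e-21). Its close copy PDF1.2b differed by -5.37 ± 0.24 on a probe set that can bind both, so the pair counts as uncertain. STOMAGEN, a secreted peptide of the leaf mesophyll that promotes stomata, lay between 53.6 and 447 in roots with a median of 178, and between 3946 and 12835 in shoots with a median of 5823 (-4.96 ± 0.15, adjusted p = 3.54e-25). The MADS-box gene AGL87 lay between 2.11 and 59.4 in roots with a median of 6.13, and between 512 and 1025 in shoots with a median of 696 (-5.07 ± 0.23, adjusted p = 4.67e-20). With the higher pseudocount its difference was -3.52. The largest shoot differences of all named genes were at loci without a symbol, AT1G29670 (-6.92 ± 0.27), AT5G55450 (-6.85 ± 0.18) and AT1G09310 (-6.83 ± 0.18), with shoot medians of 3753, 3255 and 23703.

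Photosynthesis genes of the nucleus were higher in shoots without exception among those tested. All 8 photosystem and antenna genes, all 6 of electron transport and all 3 of carbon fixation were called higher in shoots and passed the 2-fold minimum, where 12.3% of all probe sets did. Their median differences were -4.34, -4.59 and -5.22, beside 0.29 for all probe sets. The organs did not overlap at any of the 17 genes, where 9.80% of all probe sets were separate with shoot higher. With the 3′ to 5′ ratio as a covariate all 17 were still called higher in shoots, with medians of -3.96, -4.39 and -4.75. The lists are measured in part, since 8 named probe sets stand for 48 list genes, 6 for 35 and 3 for 26. LHCB4.1, an antenna protein of photosystem II, lay between 351 and 4729 in roots with a median of 1307, and between 21661 and 36858 in shoots with a median of 28543 (-4.36 ± 0.13, adjusted p = 6.71e-25). PSAN, a lumenal subunit of photosystem I, lay between 232 and 2294 in roots with a median of 938, and between 17075 and 33226 in shoots with a median of 22156 (-4.79 ± 0.12, adjusted p = 4.63e-27). In the electron transport list, ATPC1, the gamma subunit of the chloroplast ATP synthase, lay between 397 and 2309 in roots with a median of 816, and between 15576 and 23974 in shoots with a median of 19697 (-4.71 ± 0.11, adjusted p = 8.31e-28). NdhL, a subunit of the NDH complex, had medians of 54.6 and 2439 (-5.13 ± 0.14, adjusted p = 2.26e-26). PGRL1B, of the antimycin-sensitive cyclic path, differed least among the 6 (-1.88 ± 0.17, adjusted p = 3.83e-12).

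The tested Calvin cycle genes were the 3 of the carbon fixation list. PRK, phosphoribulokinase, lay between 97.5 and 939.9 in roots with a median of 238, and between 7218 and 15808 in shoots with a median of 10912 (-5.22 ± 0.12, adjusted p = 1.64e-28). SBPASE, sedoheptulose bisphosphatase, lay between 141 and 935 in roots with a median of 325, and between 6597 and 15019 in shoots with a median of 10430.0 (-4.87 ± 0.10, adjusted p = 2.79e-29). Summed over the 3 carbon fixation genes, signal lay between 616 and 2758 in roots with a median of 1225, and between 24325 and 78989 in shoots with a median of 53080. The photosystem sum lay between 2538 and 24051 in roots and between 113540 and 173021 in shoots. Root signal for these green-tissue genes has no detection call, so it is given as a value and not as presence. Its part in other root values was not tested.

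Of 9 tested genes of chlorophyll synthesis, 7 were higher in shoots and 1 in roots, beside 29.0% and 51.5% of all probe sets, and 1 was not called. The 7 shoot genes all passed the 2-fold minimum, where 12.3% of all probe sets did, and the list median was -2.92. Only 10 of the 37 list genes had a named probe set. HEME2, uroporphyrinogen decarboxylase, lay between 5.79 and 224 in roots with a median of 116, and between 1700.2 and 3321 in shoots with a median of 2519 (-4.71 ± 0.25, adjusted p = 4.21e-18). PORB, a light-dependent protochlorophyllide reductase, lay between 11.3 and 940.2 in roots with a median of 225, and between 1271 and 5041 in shoots with a median of 2663 (-3.88 ± 0.21, adjusted p = 9.06e-18). CHLM, the methyltransferase acting after magnesium is inserted, lay between 352 and 845 in roots with a median of 578, and between 3446 and 7363 in shoots with a median of 4975 (-3.21 ± 0.08, adjusted p = 9.75e-28). The remaining genes were hemb2 and HEMA2. The former, named as an isoform of the aminolevulinate dehydratase, was higher in roots, at 30.0 to 305 in roots and 3.89 to 89.1 in shoots, with medians of 127 and 34.6 (1.82 ± 0.25, adjusted p = 7.91e-08), but with the 3′ to 5′ ratio in the fit its difference was 0.99 with an adjusted p of 0.13. HEMA2, a glutamyl-tRNA reductase, lay at 109 to 315 in roots and 118 to 283 in shoots, with medians of 153 and 152 (-0.04 ± 0.11, adjusted p = 0.76), with a 95% interval of -0.26 to 0.18.

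The plastid genome lay wholly on the shoot side. All 69 of its tested probe sets were called higher in shoots, where 29.0% of all probe sets were, with a median of -3.0. Past the 2-fold minimum there were 62, beside 12.3% of all probe sets. The organs did not overlap at 41, where 9.80% of all probe sets were separate with shoot higher. Median differences were -3.91 for the 6 ATP synthase probe sets, -3.55 for 5 of photosystem I, -3.53 for 10 of the NDH complex, -3.33 for 15 of photosystem II and -3.24 for 6 of cytochrome b6f. Genes for the plastid's own gene expression differed by less, with medians of -2.38 for 15 ribosomal protein probe sets and -2.12 for 4 of the plastid RNA polymerase. psaC, the iron-sulphur subunit of photosystem I, lay between 5.00 and 159.8 in roots with a median of 68.7, and between 589.9 and 6459 in shoots with a median of 2909 (-5.23 ± 0.22, adjusted p = 1.40e-20). ndhJ of the NDH complex lay between 65.1 and 425 in roots with a median of 146, and between 1246 and 6937 in shoots with a median of 4916 (-4.86 ± 0.17, adjusted p = 8.29e-23). atpB, the catalytic subunit of the ATP synthase, lay between 249.5 and 2233 in roots with a median of 774, and between 9006 and 28897 in shoots with a median of 21201 (-4.62 ± 0.18, adjusted p = 1.95e-21). With the 3′ to 5′ covariate 64 of 69 kept a call, with a median of -2.60.

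Of 12 tested probe sets of the mitochondrial genome 8 were called higher in roots, where 51.5% of all probe sets were, and none in shoots. Their median was 0.46 beside 0.29 for all. The largest difference, at a nad5 probe set that can also bind other copies, was 1.74 ± 0.16, adjusted p = 1.85e-11. That of nad9 was 0.65 ± 0.16, adjusted p = 4.64e-04. Both genes encode subunits of respiratory complex I. After quantile normalization 5 were called in roots, and the list median of 0.09 was that of all probe sets.

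Root marker genes matched the root label. Of 15 tested markers of root hairs, endodermis and root meristem, 14 were called higher in roots and 1 in shoots, where 51.5% and 29.0% of all probe sets were. In the root hair list 5 of 6 were higher in roots with a median of 1.98. EXPA18 and EXPA7 are expansins of growing root hairs. EXPA18 lay between 137 and 600.1 in roots with a median of 280.3, and between 3.91 and 79.3 in shoots with a median of 21.0 (3.25 ± 0.24, adjusted p = 5.19e-14). EXPA7 lay between 67.9 and 387 in roots with a median of 181, and between 3.38 and 85.4 in shoots with a median of 31.7 (2.32 ± 0.24, adjusted p = 1.01e-10), with a narrow overlap. CSLD2, a cellulose synthase-like protein of hair growth, lay between 953 and 1684 in roots with a median of 1402, and between 338 and 631 in shoots with a median of 417 (1.63 ± 0.08, adjusted p = 1.89e-19). The exception was FER, a receptor kinase that acts in both organs, at -0.43 ± 0.09, and that call was lost with the 3′ to 5′ covariate (-0.05, adjusted p = 0.85).

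All 7 root meristem genes tested were higher in roots, and so were both of the endodermis and suberin list, JKD and the wax enzyme FACT given above. The list medians were 1.92 and 3.55. LBD16 and LBD29 are the auxin-induced factors that start lateral roots. LBD16 lay between 177 and 408 in roots with a median of 299, and between 3.48 and 112 in shoots with a median of 39.9 (2.84 ± 0.20, adjusted p = 9.00e-15). LBD29 had medians of 101 and 6.84 (2.37 ± 0.25, adjusted p = 1.60e-10), with a difference of 1.22 with the higher pseudocount. PUCHI, an AP2 factor of the lateral root primordium, and BBM, a PLETHORA factor of the stem cell niche, differed by 1.92 ± 0.21 and 1.83 ± 0.28. Neither kept its call with the 3′ to 5′ covariate, at 0.88 (adjusted p = 0.088) and 1.23 (adjusted p = 0.10). JKD, a zinc finger protein that helps place the endodermis, lay between 46.3 and 700.3 in roots with a median of 313, and between 7.45 and 169.5 in shoots with a median of 61.5 (2.38 ± 0.27, adjusted p = 1.73e-09). The summed signal of the root hair list lay between 3573 and 6480 in roots and between 1916 and 2859 in shoots. That of the endodermis and suberin list lay between 1443 and 3599 in roots, where FACT made up the larger part, and between 47.2 and 254 in shoots.

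Of 11 leaf and shoot development genes tested, 8 were higher in shoots, where 29.0% of all probe sets were, and 3 in roots, with a median of -1.62. The YABBY factors of the lower leaf face, YAB5 and YAB3, differed by -3.03 ± 0.18 and -2.41 ± 0.19, both without overlap. FMA and SPCH, the bHLH factors at the last and first step of the stomatal lineage, differed by -2.70 ± 0.25 and -1.82 ± 0.24, and their root medians of 7.78 and 7.60 were below the pseudocount. LEP, an AP2 factor named for its effect on leaf petioles, was higher in roots, at 229 to 547 in roots and 73.3 to 159 in shoots, with medians of 397 and 120.0 (1.63 ± 0.11, adjusted p = 1.20e-15). The other exceptions were AN (0.58 ± 0.07), which shapes leaf cells through the cytoskeleton, and PHV (0.35 ± 0.11), an upper-leaf-face homeobox factor whose value is close to the median of all probe sets. In the cuticle list both tested genes were higher in shoots, SHN3 at -2.38 ± 0.22 and WSD1 at -2.27 ± 0.32, the latter with a root median of 4.93 and a difference of -1.15 with the higher pseudocount. Only 1 gene of the vasculature list was measured, the phloem sugar exporter SWEET11 (-1.69 ± 0.13, adjusted p = 8.21e-14).

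**Figure D3:**
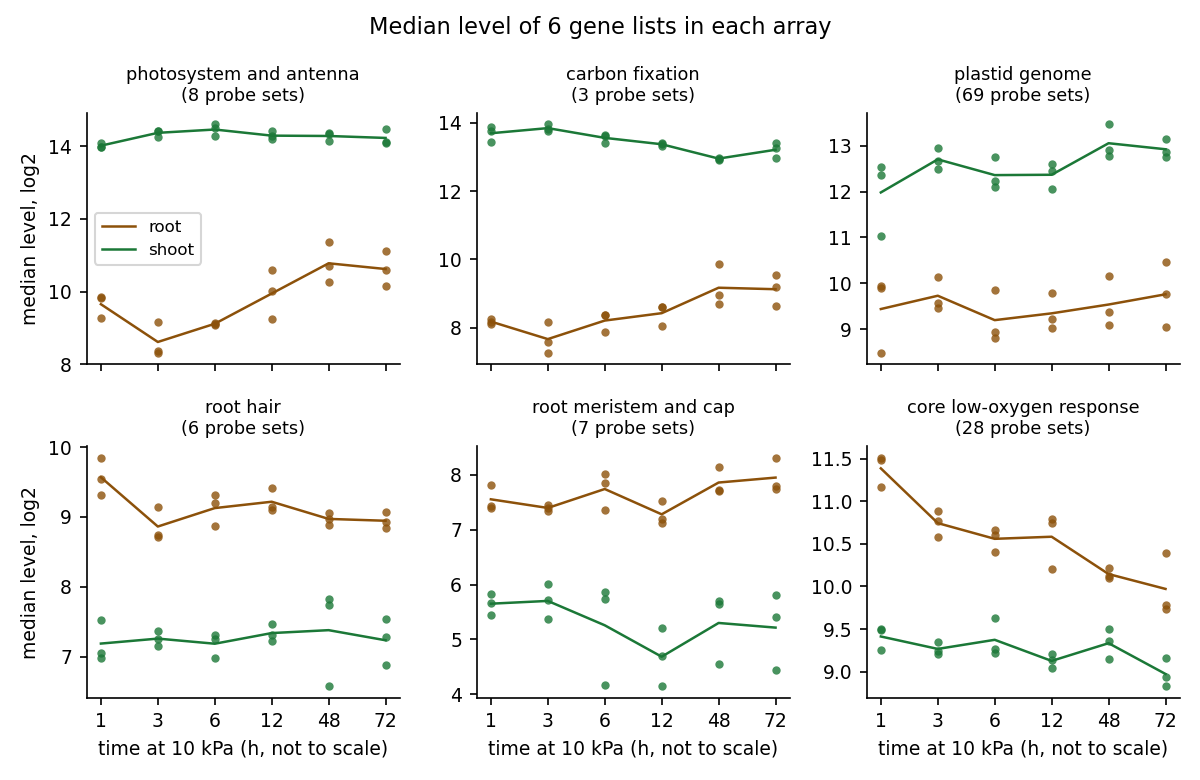
Median log2(signal + pseudocount) of the members of 6 gene lists on each array against time at 10 kPa, with root and shoot arrays as points and the group means as lines. Photosystem and carbon fixation genes stay far apart between organs at every time and come closer at 48 and 72 h, with root group means of 10.78 and 10.62 for the photosystem list.

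Core low-oxygen genes were higher in roots as a group. Of the 51 genes of the list 28 had a tested probe set, of which 23 were called higher in roots, 3 in shoots and 2 were not called, where 51.5% of all probe sets were called higher in roots. Past the 2-fold minimum there were 16 in roots and none in shoots, where 15.4% and 12.3% of all probe sets passed. Their median difference was 1.77, beside 0.29 for all probe sets, and 1.73 after quantile normalization. Summed over the 28 genes, signal lay between 83763 and 254212 in roots with a median of 181710, and between 18668 and 34751 in shoots with a median of 27172, so that no root array came as low as any shoot array. With the 3′ to 5′ covariate 21 were called in roots and 1 in shoots, with a median of 1.43. The genes of this list were known as oxygen-responsive from earlier work, but no ambient-oxygen array was used here, so these are levels at 2.1 kPa oxygen and not responses.

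The widest gaps in the low-oxygen list were at genes that carry only a locus name. AT1G19530 lay between 1804 and 13480.1 in roots with a median of 3406, and between 2.40 and 375 in shoots with a median of 50.2 (5.82 ± 0.27, adjusted p = 1.26e-19). AT5G10040 lay between 12484 and 30734 in roots with a median of 23350.5, and between 98.2 and 882 in shoots with a median of 495 (5.73 ± 0.12, adjusted p = 8.25e-29). AT5G66985 lay between 3839.6 and 31095 in roots with a median of 20069.7, and between 196 and 921 in shoots with a median of 512 (5.12 ± 0.19, adjusted p = 5.12e-22). In all 3 the organs were apart on every array. AT3G29970 lay between 3074 and 44744 in roots with a median of 30665, and between 614 and 2500.5 in shoots with a median of 1377 (3.84 ± 0.13, adjusted p = 3.90e-23). AT2G17850 lay between 3630.2 and 14896 in roots with a median of 10589, and between 383 and 1285 in shoots with a median of 755 (3.75 ± 0.13, adjusted p = 1.72e-23). AT1G33055 lay between 2264 and 20431 in roots with a median of 11790.0, and between 386 and 3001 in shoots with a median of 1079 (3.31 ± 0.15, adjusted p = 9.99e-20). Only AT1G33055 of these 6 overlapped, because its lowest root array fell below its highest shoot array.

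Smaller root excesses followed, still past the 2-fold minimum. AT4G33560 (2.77 ± 0.13), AT2G15880 (2.72 ± 0.16), AT4G27450 (2.68 ± 0.09), AT5G42200 (2.09 ± 0.12) and AT1G10140 (1.91 ± 0.08) were also without overlap. AT4G10270 (2.08 ± 0.19), AT5G26200 (1.90 ± 0.15), AT3G03270 (1.87 ± 0.10), AT5G44730 (1.67 ± 0.08) and AT4G17670 (1.66 ± 0.13) overlapped in part. AT3G10040 was also called higher in roots, but not past the 2-fold minimum. It encodes HRA1, the trihelix protein that restrains the group VII factor RAP2.12. Its signal lay between 66.3 and 1571 in roots with a median of 413, and between 36.6 and 491 in shoots with a median of 148 (1.29 ± 0.20, adjusted p = 4.32e-07).

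Fermentation was represented by PDC2, a pyruvate decarboxylase, which lay between 423 and 3742 in roots with a median of 1350.3, and between 441 and 2036 in shoots with a median of 634 (0.84 ± 0.09, adjusted p = 2.34e-10). CML38, a calmodulin-like protein of hypoxia granules, lay between 209.5 and 2753 in roots with a median of 1581, and between 507 and 2365 in shoots with a median of 631 (0.83 ± 0.17, adjusted p = 5.37e-05). AT1G26270 (1.17 ± 0.08), AT4G24110 (1.03 ± 0.20), AT3G27220 (0.83 ± 0.11) and AT1G74940 (0.81 ± 0.08) were higher in roots by similar amounts, and AT4G24110 and AT3G27220 lost the call with the 3′ to 5′ covariate (adjusted p = 0.21 and 0.11). AT1G72940 (-0.76 ± 0.15), AT5G45960 (-0.68 ± 0.31) and AT3G10020 (-0.56 ± 0.13) were the 3 members higher in shoots. AT3G10020 had the other sign with the covariate (0.38), AT1G72940 lost its call there (adjusted p = 0.28), and AT5G45960 lost its call with the tube as a block (adjusted p = 0.074) and without any of 17 single arrays (adjusted p of 0.050 to 0.089). HEMA2 and AT3G23170 (-0.04 ± 0.13) were not called.

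**Figure D4:**
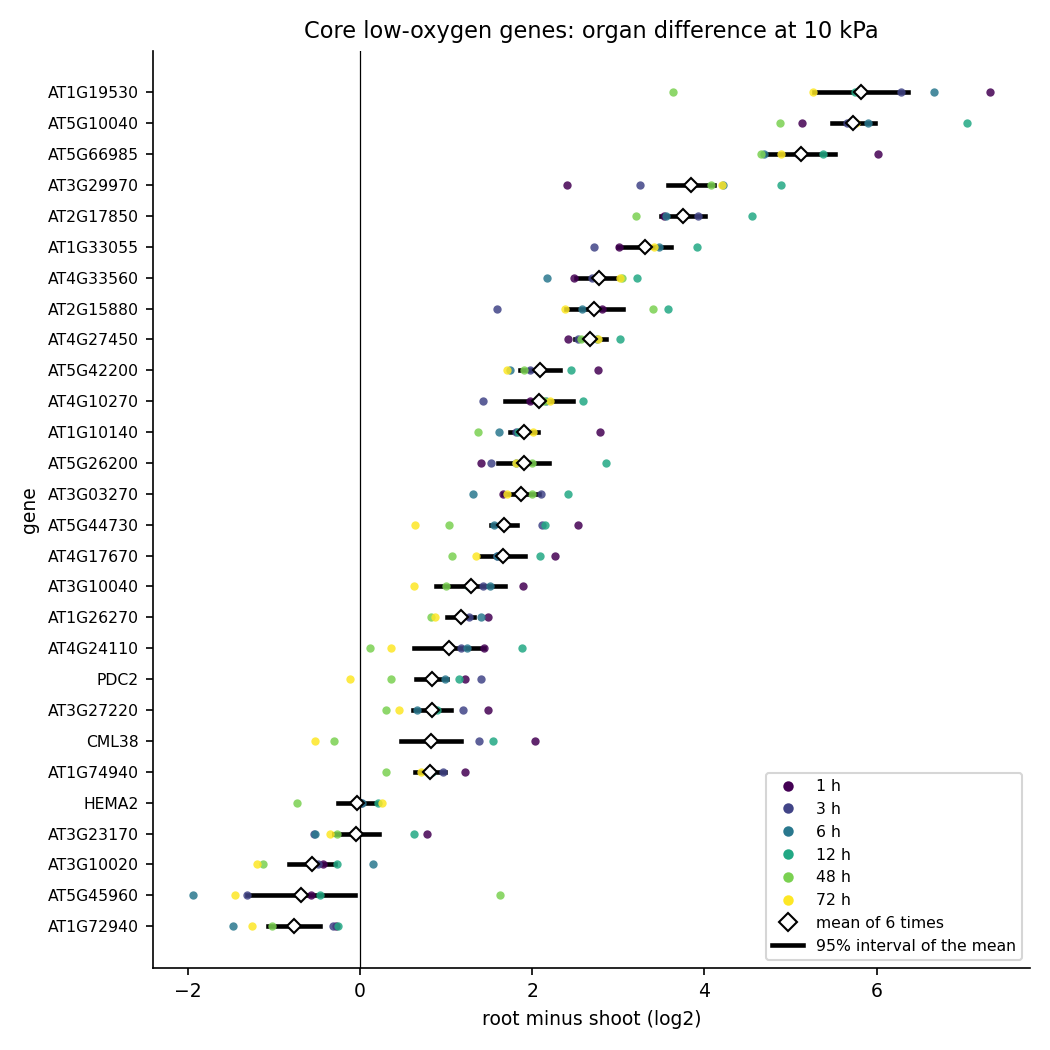
Root minus shoot difference (log2) of the 28 tested core low-oxygen genes, ordered by the mean of the 6 times (open diamonds) with its 95% interval (bars) and the value at each time as coloured points. AT1G19530 at 5.82 and AT5G10040 at 5.73 lie furthest to the root side, and PDC2 and CML38 have their 72 h points at or below 0.

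The tested genes of central carbon metabolism showed no common direction. Of the 50 genes in the glycolysis and fermentation list only 6 were tested. In roots 2 were higher and in shoots 2, beside 51.5% and 29.0% of all probe sets. Under median centring the counts were 2 and 4. PPDK, pyruvate orthophosphate dikinase, was higher in shoots, at 5.16 to 225 in roots and 605 to 1975 in shoots, with medians of 105 and 1362 (-3.86 ± 0.24, adjusted p = 3.99e-16). ALDH2C4, an aldehyde dehydrogenase, was higher in roots, at 4738 to 14081 in roots and 3204 to 5622 in shoots, with medians of 9267 and 4037 (1.15 ± 0.08, adjusted p = 1.16e-14). GAPC2, the cytosolic glyceraldehyde phosphate dehydrogenase, had medians of 14209 and 14202 (-0.17 ± 0.10, adjusted p = 0.12), and was called higher in shoots with the tube as a block (adjusted p = 0.007). In the list of sugar starvation and sugar transport, 11 of 25 were higher in roots and 11 in shoots, beside 51.5% and 29.0% of all probe sets, with a median of 0.02. Those counts became 5 and 9 with the 3′ to 5′ covariate.

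Within that sugar list the SWEET transporters divided by organ. SWEET16, a vacuolar sugar carrier, lay between 583 and 1681 in roots with a median of 949, and between 101 and 304 in shoots with a median of 187 (2.33 ± 0.10, adjusted p = 6.67e-20). SWEET10 of the plasma membrane lay between 6.23 and 215 in roots with a median of 38.9, and between 241 and 882 in shoots with a median of 345 (-2.72 ± 0.26, adjusted p = 2.03e-11), and neither gene's organs overlapped. APL3, a large subunit of the ADP-glucose pyrophosphorylase of starch synthesis, was higher in shoots, at 3.06 to 86.5 in roots and 56.9 to 557 in shoots, with medians of 12.7 and 209 (-2.96 ± 0.28, adjusted p = 1.29e-11). ICL, isocitrate lyase of the glyoxylate cycle, was the list's largest root excess (2.99 ± 0.29, adjusted p = 2.31e-11) and depended on time, as given below.

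Of 24 tested expansins and xyloglucan enzymes, which loosen and remodel the wall, 16 were higher in roots and 4 in shoots, beside 51.5% and 29.0% of all probe sets, with a median of 1.3. Past the 2-fold minimum there were 11 in roots and 1 in shoots, beside 15.4% and 12.3%. XTH20, a xyloglucan endotransglucosylase, lay between 533 and 1109 in roots with a median of 772, and between 4.65 and 126 in shoots with a median of 55.3 (3.99 ± 0.23, adjusted p = 3.58e-17). EXLA3, an expansin-like protein, lay between 288 and 1492 in roots with a median of 489, and between 5.13 and 112 in shoots with a median of 44.7 (3.44 ± 0.25, adjusted p = 2.41e-14). XTH21 had medians of 176 and 2.52 (3.43 ± 0.27, adjusted p = 1.55e-13), with a difference of 5.14 without a pseudocount and 1.83 with the higher one. The shoot side held EXPA16 (-1.56 ± 0.23) and XTH16 (-1.24 ± 0.13), both with overlap. With the 3′ to 5′ covariate 12 were called in roots and 3 in shoots.

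In the wider list of wall polymer genes, 25 of 42 tested were higher in roots and 7 in shoots, beside 51.5% and 29.0% of all probe sets, with a median of 0.64. Under median centring 25 were called in roots and 13 in shoots. TBL36, of the same acetyltransferase family as TBL30, lay between 3735 and 14338 in roots with a median of 6792, and between 357 and 879.6 in shoots with a median of 534 (3.67 ± 0.09, adjusted p = 2.77e-27). Its relative TBL26 went the other way, at 23.9 to 106 in roots and 539 to 1731 in shoots, with medians of 70.4 and 1169 (-3.88 ± 0.16, adjusted p = 8.64e-21), so the acetyltransferase family had members on both sides. Of 8 lignin genes 5 were higher in roots, where 51.5% of all probe sets were, and 1 in shoots, with a median of 1.23. AT5G66390, peroxidase PRX72, lay between 119 and 333 in roots with a median of 266, and between 0.887 and 38.1 in shoots with a median of 3.24 (4.12 ± 0.21, adjusted p = 1.45e-18). Its shoot median was below the pseudocount, and its difference was 5.77 without a pseudocount and 2.37 with the higher one. CCR2, a cinnamoyl-CoA reductase, lay between 185 and 468 in roots with a median of 276, and between 3.14 and 84.8 in shoots with a median of 32.2 (2.99 ± 0.17, adjusted p = 5.90e-17). Prx37, a class III peroxidase, lay between 1195 and 4771 in roots with a median of 2432, and between 136 and 449.6 in shoots with a median of 265 (3.12 ± 0.12, adjusted p = 3.37e-22). The exception was AT5G64120, peroxidase PRX71, at -2.42 ± 0.28.

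All 5 tested flavonoid genes were called higher in shoots, where 29.0% of all probe sets were, and 2 passed the 2-fold minimum, with a median of -1.59. Of the 5, 3 were called with the 3′ to 5′ covariate and 4 with the tube as a block. UGT78D1, which adds rhamnose to flavonols, lay between 7.94 and 141 in roots with a median of 62.7, and between 873 and 2277 in shoots with a median of 1303 (-4.70 ± 0.21, adjusted p = 3.29e-20), the single gene of the 5 without overlap. DFR, dihydroflavonol reductase of the anthocyanin branch, lay between 18.3 and 953 in roots with a median of 122, and between 127 and 1811 in shoots with a median of 577 (-1.85 ± 0.22, adjusted p = 4.69e-09). UF3GT (-1.59 ± 0.26) and UGT78D2 (-0.69 ± 0.09), which glycosylate anthocyanins and flavonols, were higher in shoots with overlap.

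Of 7 glucosinolate genes 5 were higher in shoots, where 29.0% of all probe sets were, and 1 in roots, with a median of -1.40. The root gene was PYK10, described above. GTR1, a glucosinolate importer, lay between 112 and 336 in roots with a median of 186, and between 461 and 823 in shoots with a median of 636 (-1.72 ± 0.11, adjusted p = 3.18e-16). AOP1, of the side-chain modifying oxygenase family, lay between 54.6 and 222 in roots with a median of 122, and between 268 and 545 in shoots with a median of 388 (-1.72 ± 0.14, adjusted p = 4.70e-13). BGLU28, an atypical myrosinase, differed by -3.32 ± 0.23 with a strong dependence on time. The root list of specialised metabolites had 3 tested genes. Among these TPS-CIN, a root terpene synthase that makes cineole, lay between 135 and 280.3 in roots with a median of 192, and between 3.26 and 93.0 in shoots with a median of 22.9 (2.85 ± 0.23, adjusted p = 5.75e-13).

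Defence peptides were divided between the organs gene by gene. In the jasmonate and defence list 4 of 11 were higher in roots and 7 in shoots, beside 51.5% and 29.0% of all probe sets, with a median of -0.96. THI2.1, a jasmonate-responsive thionin, lay between 4.69 and 140.0 in roots with a median of 63.9, and between 209.7 and 9899.9 in shoots with a median of 1528 (-4.79 ± 0.28, adjusted p = 5.56e-17), so that shoot arrays ranged widely while no root array reached the lowest of them. PDF2.1, a defensin, lay between 404 and 1356 in roots with a median of 661, and between 2.84 and 234 in shoots with a median of 56.3 (3.67 ± 0.21, adjusted p = 5.67e-17). LCR68, another defensin-like peptide, was higher in roots, at 23483 to 44173 in roots and 6619 to 11442 in shoots, with medians of 31290.4 and 9262 (1.81 ± 0.06, adjusted p = 3.11e-23).

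Detoxification and conjugation enzymes likewise divided within families. Of 13 glutathione transferases 7 were higher in roots and 6 in shoots, beside 51.5% and 29.0% of all probe sets. GSTU20 lay between 169 and 976 in roots with a median of 397, and between 6741 and 18258 in shoots with a median of 12774 (-4.96 ± 0.12, adjusted p = 3.07e-27). GSTU22 lay between 428 and 1834 in roots with a median of 640.0, and between 2.66 and 80.4 in shoots with a median of 51.8 (3.84 ± 0.19, adjusted p = 1.34e-18). GSTU25 (3.27 ± 0.15) and GSTU26 (2.79 ± 0.13) also lay on the root side and GSTL3 (-2.57 ± 0.10) on the shoot side, each without overlap. Of 14 cytochrome P450 genes 11 were higher in shoots and 2 in roots, beside 29.0% and 51.5% of all probe sets, with a median of -1.28. CYP71B5 (-3.09 ± 0.21) and CYP71B35 (-2.97 ± 0.23) were separate on the shoot side, and CYP71B37 of the same subfamily (3.24 ± 0.14) was separate on the root side. Among sugar transferases of the UGT family 18 of 29 were higher in shoots and 7 in roots, beside the same 29.0% and 51.5%. After UGT78D1, already given, the largest shoot difference was that of UGT76E11 (-3.62 ± 0.18), and UGT71C2 (2.65 ± 0.25) was the largest on the root side, with a shoot median of 7.84, below the pseudocount.

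Auxin genes tested were higher in roots in 7 of 11 cases and in shoots in 3, beside 51.5% and 29.0% of all probe sets, with a median of 0.97. The counts were 4 and 2 with the 3′ to 5′ covariate, with a median of 0.68. GH3.17, which conjugates auxin to glutamate, lay between 540.4 and 1713 in roots with a median of 911, and between 14.1 and 174 in shoots with a median of 95.0 (3.36 ± 0.20, adjusted p = 1.17e-16). IAA33, a non-canonical Aux/IAA protein, differed by 1.71 ± 0.23, and YUC2, an auxin biosynthesis enzyme, by -0.59 ± 0.13. GH3.3 was called higher in shoots (-0.71 ± 0.19) but lay at 0.21 with the 3′ to 5′ covariate. LBD16 and LBD29 belong to this list as well.

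Signalling peptides had members on both sides. RALFL32, of the family of secreted RALF peptides that are sensed by FER-type kinases, lay between 17282 and 36899 in roots with a median of 23423, and between 1667 and 4154 in shoots with a median of 2582 (3.22 ± 0.08, adjusted p = 7.50e-27). RALFL27 lay between 139 and 483 in roots with a median of 294, and between 0.833 and 49.3 in shoots with a median of 5.68 (4.10 ± 0.19, adjusted p = 2.16e-19), and with the higher pseudocount its difference was 2.52. Of 10 RALF and CLE genes tested 6 were higher in roots and 3 in shoots, shares near the 51.5% and 29.0% of all probe sets. The peptides CLE41 and CLE44 restrain xylem formation from the phloem side. CLE41 differed by 0.70 ± 0.09, and CLE44 by -0.32 ± 0.11, a call lost with the tube as a block (adjusted p = 0.053).

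Transcription factors were measured in small part. AGL42, expressed in the root stem cell niche and known in flowering, lay between 319 and 601 in roots with a median of 447, and between 19.4 and 159.9 in shoots with a median of 73.1 (2.53 ± 0.11, adjusted p = 7.28e-20). The flowering activator AGL24 lay between 5.42 and 122 in roots with a median of 23.8, and between 367 and 637 in shoots with a median of 485 (-3.66 ± 0.18, adjusted p = 8.92e-19). WRKY6, which takes part in senescence and phosphate responses, lay between 461 and 1408 in roots with a median of 878, and between 42.7 and 238 in shoots with a median of 101 (2.79 ± 0.15, adjusted p = 1.18e-17), the single gene of 6 WRKY genes past the 2-fold minimum. SIM, an inhibitor of cyclin-dependent kinases that promotes endoreduplication, lay between 2434 and 5057 in roots with a median of 3164, and between 284 and 509 in shoots with a median of 409.5 (2.99 ± 0.06, adjusted p = 1.02e-28). Other cell cycle genes differed by far less, such as the Aurora kinases AUR1 (0.63 ± 0.09) and AUR3 (1.06 ± 0.13).

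Ion transport and calcium genes had few strong members. Of 6 mineral transport genes tested 4 were higher in roots, beside 51.5% of all probe sets, and none in shoots. The counts were 2 and 0 with the 3′ to 5′ covariate and 3 and 1 after quantile normalization. The list was led by the metal transporter ZIP6 at 514 to 857 in roots and 169 to 335 in shoots, with medians of 661 and 239.6 (1.42 ± 0.08, adjusted p = 5.77e-18). Of 11 calcium signalling genes 4 were higher in roots and 2 in shoots, below the 51.5% and 29.0% of all probe sets. After quantile normalization 4 were called on each side, beside 43.1% of all probe sets in roots and 35.0% in shoots. CML43, a calmodulin-like protein, lay between 178 and 426 in roots with a median of 278, and between 6.45 and 130.0 in shoots with a median of 61.3 (2.25 ± 0.22, adjusted p = 4.92e-11). GLR2.7, a glutamate receptor-like channel, lay between 3.08 and 96.7 in roots with a median of 14.6, and between 148 and 378 in shoots with a median of 284 (-3.28 ± 0.25, adjusted p = 1.03e-13). No named probe set was given for any aquaporin or ABC transporter, and these are not analysed here.

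A sizeable part of the transcriptome was nearly even. For 3436 probe sets (20.2%) the 95% interval of the mean difference lay within ±0.5. Among these, genes with the highest signal included the cytosolic glycolysis enzymes GAPC2 (-0.17 ± 0.10) and TPI (-0.24 ± 0.06), the polyamine enzyme SAMDC (0.20 ± 0.08) and the plastid envelope protein OEP16-3 (-0.04 ± 0.06). Within these limits TPI was still called higher in shoots, but not without the arrays of 48 and 72 h (0.0096, adjusted p = 0.90). Its late minus early value was -0.37 within roots and 0.44 within shoots. OEP16-3 lay between 5666 and 9811 in roots with a median of 7009, and between 5997 and 10362 in shoots with a median of 7160.4. After quantile normalization OEP16-3 was at 0.18. AT1G54410 lay between 13224 and 28317 in roots with a median of 21311, and between 10546 and 34099 in shoots with a median of 19388 with a mean difference of -0.01 ± 0.07, yet its difference went from 0.92 at 1 h to -0.54 at 48 h.

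Taken time by time, the organ difference was called at 9508 probe sets (55.8%) at 1 h, 9802 (57.6%) at 3 h, 9768 (57.4%) at 6 h, 9504 (55.8%) at 12 h, 9187 (54.0%) at 48 h and 10140 (59.6%) at 72 h. At 72 h only replicate 3 has both organs from the same tube, and with the tube as a block 6426 were called there. A difference of the same sign was called at all 6 times for 5723 probe sets (33.6%), 3545 (20.8%) with root higher and 2178 (12.8%) with shoot higher. The 3 largest differences each way at every single time, among named genes, all fell on genes that also led the mean. AT3G28550 was among the 3 largest root excesses at all 6 times, with 8.68, 8.79, 9.26, 9.50, 8.88 and 9.0 from 1 to 72 h. AT5G55450 was among the 3 largest shoot excesses at all times but 48 h, with -7.30, -8.10, -7.76, -8.07, -3.62 and -6.26. Across probe sets the differences at 6 and 12 h were the most alike (Pearson r = 0.953) and those at 3 and 72 h the least (r = 0.875), given as a description because probe sets are not independent.

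The organ difference itself changed with time at 2181 probe sets (12.8%) by the F test of organ by time. The late times, 48 and 72 h, were then set against the early ones, 1 and 3 h, and 3003 probe sets (17.6%) differed, 1505 (8.84%) toward root and 1498 (8.80%) toward shoot. The gap was smaller late at 1794 of them and larger at 1209. Against a 2-fold minimum 65 (0.382%) were called, 52 (0.305%) of them toward root and 13 (0.0763%) toward shoot. Of those that moved toward root, 1056 had been higher in shoots early, and of those that moved toward shoot, 1160 had been higher in roots early. Array numbers in the descriptions rose with time, apart from 2 arrays at 72 h, so time and array number cannot be told apart, while root and shoot alternated in number within each time.

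Photosynthesis genes came closer between the organs at the late times. All 8 photosystem and antenna genes were called toward root, where 8.84% of all probe sets were, with a median change in the difference of 1.59. So were 4 of 6 electron transport genes (median 1.22) and all 3 carbon fixation genes (median 1.92). Within roots, late minus early signal had a median of 1.65 for the photosystem list and 1.31 for carbon fixation, against 0.05 and -0.72 within shoots, values given without a test. The 3′ to 5′ ratio was also higher late, at 3.92 to 5.86 in roots and 3.38 to 3.97 in shoots at 48 h beside 3.63 to 3.84 and 2.48 to 2.81 at 3 h. Late minus early was also fitted with this ratio as a covariate, and those values are not given here. In PSBY, a small photosystem II protein, roots held 850.4, 592 and 733 at 1 h and 1399, 1767 and 3014 at 48 h. Its shoots held 17203, 15989.9 and 16969 at 1 h and 15184, 15875 and 17199 at 48 h, so that the gap closed in part from the root side (1.93 ± 0.25, adjusted p = 1.80e-06 for late minus early). PRK roots held 145, 183 and 97.5 at 3 h and 445, 329.7 and 939.9 at 72 h. PRK shoots held 13826, 15808 and 14441 at 3 h and 9527, 10916 and 7695 at 72 h, so both organs moved toward each other (2.25 ± 0.28, adjusted p = 1.03e-06). HPR followed the same course (1.82 ± 0.24, adjusted p = 2.74e-06). In the plastid genome late minus early was called at 5 of 69 probe sets, all toward shoot, where 8.80% of all probe sets were called toward shoot, and its median was -0.48.

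In the low-oxygen list several genes had a smaller root excess late. Its median difference was 2.00 at 1 h, 1.56 at 3 h, 1.57 at 6 h, 2.12 at 12 h, 1.50 at 48 h and 1.53 at 72 h. Late minus early was called for 9 of 28, 8 toward shoot and 1 toward root, beside 8.80% and 8.84% of all probe sets, and the list's median change was -0.55. Within roots the late minus early median was -0.70 and within shoots -0.08. AT1G19530 (-2.35 ± 0.66, adjusted p = 0.011), CML38 (-2.12 ± 0.42, adjusted p = 4.70e-04), AT5G44730 (-1.48 ± 0.19, adjusted p = 1.03e-06) and PDC2 (-1.18 ± 0.22, adjusted p = 1.84e-04) lost part of their root excess. PDC2 roots held 3742, 3386 and 2949.5 at 1 h and 607, 429 and 423 at 72 h. PDC2 shoots held 1527, 2036 and 944 at 1 h and 509, 619 and 441 at 72 h, so that the organs were apart at 1 h and overlapped at 72 h. CML38 went from 2.04 ± 0.42 at 1 h (adjusted p = 1.12e-04) to -0.53 ± 0.42 at 72 h (adjusted p = 0.29). The exception was AT3G29970, whose root excess grew (1.31 ± 0.32, adjusted p = 0.0042).

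Of single genes, ICL had the largest move toward root among those with a symbol. Its roots held 83.3, 6.32 and 11.3 at 1 h, then 282, 124 and 968 at 12 h, then 437, 1174 and 983 at 48 h. Its shoots held 7.62, 5.47 and 10.3 at 1 h and 14.1, 11.9 and 94.3 at 48 h, where the organs were apart (4.07 ± 0.70, adjusted p = 8.85e-05). The early root values were uneven, with 1 array of 3 far above the others at both 1 and 3 h. MSRB6, a methionine sulfoxide reductase, moved toward root with lower shoot values late. Its shoots held 1858, 1306 and 1541 at 1 h and 207, 208 and 24.8 at 48 h. Its roots held 698, 344 and 736 at 1 h and 840.2, 743 and 618 at 48 h, so the order of the organs turned over (2.96 ± 0.48, adjusted p = 3.62e-05). ATSPS4F, a sucrose phosphate synthase of leaves, stayed higher in shoots by less (2.66 ± 0.34, adjusted p = 1.67e-06). UGT85A7 also moved toward root (2.91 ± 0.66, adjusted p = 0.0019), but not with the tube as a block (adjusted p = 0.052).

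Among loci without a symbol, AT1G60590 (4.55 ± 0.48, adjusted p = 5.03e-08), AT1G73120 (3.92 ± 0.53, adjusted p = 3.19e-06), AT5G48490 (3.89 ± 0.31, adjusted p = 4.02e-10), AT1G62510 (3.85 ± 0.54, adjusted p = 5.54e-06) and AT2G27420 (3.65 ± 0.70, adjusted p = 3.55e-04) had the other large moves toward root. For AT5G48490 the late minus early value was 3.63 within roots and -0.26 within shoots. AT1G62510 went from -1.15 ± 0.54 at 3 h (adjusted p = 0.068) to 3.35 ± 0.54 at 48 h (adjusted p = 3.62e-06).

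Toward shoot, the largest move was that of CSLA01, a glucomannan synthase of the cell wall. Its shoots held 75.0, 10.9 and 52.4 at 1 h and 1823, 2091 and 2259.8 at 72 h. Its roots held 23.1, 18.9 and 19.2 at 1 h and 50.3, 6.81 and 66.1 at 72 h, so the organs overlapped at 1 h and were far apart at 72 h (-4.80 ± 0.76, adjusted p = 3.12e-05). BGLU28 shoots held 129, 181 and 145 at 1 h and 3229, 2906 and 4506 at 72 h. BGLU28 roots held 32.7, 55.0 and 40.8 at 1 h and 81.4, 209.8 and 5.30 at 72 h, and the shoot excess was larger late (-3.61 ± 0.57, adjusted p = 2.56e-05). BZIP61, a bZIP transcription factor, instead had lower root values late. Its roots held 501, 658 and 782 at 3 h and 34.4, 43.0 and 74.5 at 48 h. Its shoots held 62.6, 116 and 119 at 3 h and 143, 107 and 237 at 48 h, so the organs were apart at both times in opposite order (-3.10 ± 0.30, adjusted p = 1.22e-08). AT4G30380, which encodes the expansin-like protein EXLB2 (-3.82 ± 0.71, adjusted p = 2.53e-04), AT5G46670 (-3.54 ± 0.72, adjusted p = 6.52e-04) and sks16, a relative of the wall protein SKU5 (-2.39 ± 0.53, adjusted p = 0.0015), lost root excess as well. OCT1, a carnitine transporter (-2.95 ± 0.93, adjusted p = 0.024), depended on single arrays. Without root replicate 2 of 3 h, root replicate 3 of 72 h or shoot replicate 1 of 72 h its adjusted p was 0.051 to 0.054.

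**Figure D5:**
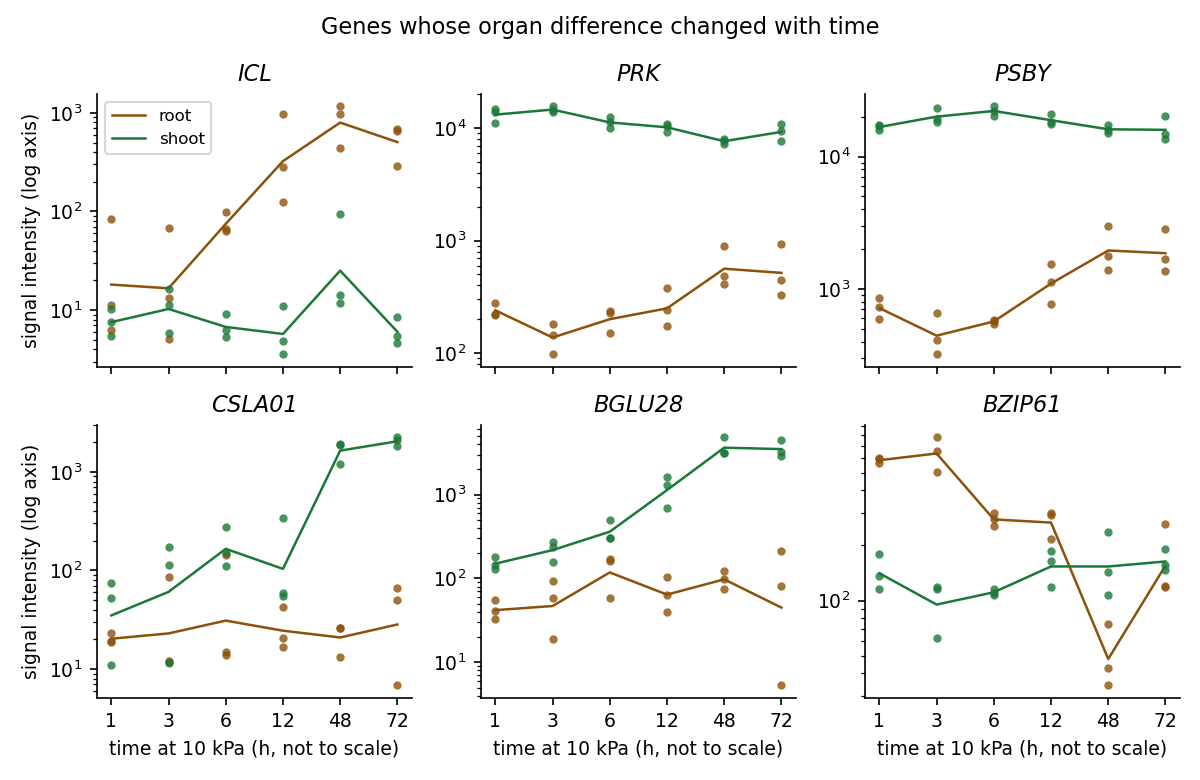
Signal intensity (log axis) against time at 10 kPa (h, not to scale) for 6 genes whose organ difference changed, with 3 root and 3 shoot arrays as points at each time and lines through the means of the log values. ICL, PRK and PSBY move toward root late, CSLA01 and BGLU28 have higher shoot values late, and BZIP61 has lower root values late.

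A change of side was called for 278 probe sets (1.63%), which were called higher in roots at some time and in shoots at another. Of these, 140 were higher in roots at 1 or 3 h and in shoots at 48 or 72 h, and 93 the reverse. BZIP61 was higher in roots at 3 h (2.63 ± 0.30, adjusted p = 5.17e-09) and in shoots at 48 h (-1.51 ± 0.30, adjusted p = 7.72e-05). MSRB6 was higher in shoots at 1 h (-1.45 ± 0.48, adjusted p = 0.010) and in roots at 48 h (2.66 ± 0.48, adjusted p = 1.75e-05). EXLA2, an expansin-like protein, was higher in roots at 48 h (1.34 ± 0.56) and in shoots at 72 h (-1.99 ± 0.56). AT1G67210 did so between 6 h (2.3 ± 0.45) and 72 h (-1.96 ± 0.45). PR-1-LIKE, GAT1_2.1, a glutamine amidotransferase, and PID2, a PINOID-type kinase, also had called differences of both signs. Their organ by time tests were adjusted p = 0.023, 0.028 and 0.042, and with the replicate number as a block they were 0.067, 0.095 and 0.11. Single arrays also ended some of these calls. EXLA2 lost its organ by time call without replicate 1 or 3 of either organ at 72 h (adjusted p of 0.067 to 0.080), and PR-1-LIKE without replicate 3 of either organ at 3 h (0.052 to 0.055). GAT1_2.1 lost it without any of 7 arrays of 1 or 48 h (0.051 to 0.076) and PID2 without any of 21 arrays (0.051 to 0.10).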

How the data were processed

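The authors deposited MAS5 signal intensity, unlogged. The submitters' processing notes name MAS5 and Affymetrix Expression Console, without a version. In the values themselves every array had a mean of 500.05 to 500.07 after 2% of probe sets were trimmed at each end. Of 22810 probe sets 64 were controls, 13513 are paired with 1 gene in the annotation given, 503 with several and 8730 are not listed, and only those with 1 gene are named. Signals were taken as log2(signal + 8.77), the 10th percentile of all values, and a probe set was tested where it reached the 40th percentile of its array on at least 3 arrays, which left 17027 tested and 5719 not.

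The 12 groups of organ and time were fitted together in limma 3.58.1 under R 4.3.3 with 24 residual degrees of freedom and a variance trend, all 36 arrays sharing 1 estimate of the spread. Contrasts were root minus shoot as the mean of the 6 times and at each time, the 5 contrasts of organ by time (F test), and late (48 and 72 h) minus early (1 and 3 h). All tests were two-sided, with Benjamini-Hochberg adjustment over all tested probe sets and a threshold of 0.05. The minimum of 2-fold was tested with limma's treat. The fit was tested on simulated data.

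Tube codes in the labels mark 20 tubes of plants, and 16 of them are represented by both organs. The deviations of both organs from their group means correlated at -0.03 to 0.11 within these tubes (median 0.03) and at -0.11 to 0.05 in 38 pairs from different tubes (median -0.02). The main design has no block, and the tube was tried as a block. No detection calls were used, and the number of arrays limits the precision. p-values measure the spread between chambers of plants run side by side. Alternatives were quantile normalization, median centring, other pseudocounts and filters, no variance trend, the 2-fold minimum, the 3′ to 5′ ratio as a covariate, replicate blocks, each array, replicate or time left out, and single times fitted alone. Median centring and the fit without 48 and 72 h were added after the data were seen.

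The named genes were the leaders of each contrast, up to 4 leading members and up to 2 exceptions of each gene list, every tested core low-oxygen gene, and the even genes with the highest signal. Leaders of the mean and of single times were drawn only from called probe sets without overlap between the organs on the arrays compared. The members and lists were chosen with earlier results of these data known, and 11 gene families were added once the annotation had been seen.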

Additional observations from a re-analysis of the deposited data

Results flagged for a closer look

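Organ differences that themselves changed with time are listed here. The F test of organ by time called 2181 probe sets, and late minus early called 3003. Toward root, the change on the log2 scale was 4.55 for AT1G60590, 4.07 for ICL, 3.92 for AT1G73120, 3.89 for AT5G48490, 3.85 for AT1G62510 and 3.65 for AT2G27420. Genes with a smaller shoot excess late, or none, included MSRB6 (2.96), UGT85A7 (2.91), ATSPS4F (2.66), PR-1-LIKE (2.60), AT2G19970 (2.57) and the Calvin cycle gene PRK (2.25).

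Toward shoot, the change was -4.80 for CSLA01, -3.82 for AT4G30380, -3.61 for BGLU28, -3.54 for AT5G46670, -3.10 for BZIP61, -2.95 for OCT1, -2.82 for GAT1_2.1 and -2.39 for sks16. CSLA01 and BGLU28 had higher shoot signals late (4.95 and 4.23 within shoots, 0.15 and 0.63 within roots). For BZIP61 the late minus early value was -2.68 within roots and 0.42 within shoots.

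The organ by time test gave an adjusted p of 0.000583 for AT1G67210, 0.0285 for EXLA2 and 0.0423 for PID2, whose organ order differed between times. The call of AT1G67210 was lost without the arrays of 72 h. With the tube as a block the late minus early changes of UGT85A7 and PR-1-LIKE were no longer called (adjusted p = 0.052 and 0.14). In the core low-oxygen list the change was -2.35 for AT1G19530, -2.12 for CML38, -1.48 for AT5G44730, -1.18 for PDC2, -0.97 for AT3G27220, -0.61 for AT1G10140, -0.59 for AT1G74940 and -0.53 for AT1G26270. AT3G29970 moved the other way (1.31), with 2.19 within roots and 0.88 within shoots.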

How the results depend on the processing

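With every one of the 36 arrays left out in turn, or replicate 1, 2 or 3 left out of all groups, the mean organ difference was called at 12786 to 13736 probe sets. By single time these ranges were 7602 to 9668 at 1 h, 7979 to 9954 at 3 h, 8077 to 9910 at 6 h, 7722 to 9643 at 12 h, 7388 to 9332 at 48 h and 8185 to 10249 at 72 h. Time-dependent counts were less stable: organ by time gave 789 to 2355 and late minus early 1430 to 3118, the low ends with a replicate left out of every group, which leaves fewer arrays. Without the arrays of 3 h organ by time gave 1298. Against a 2-fold minimum the counts were 4726 for the mean, 3298 at 1 h, 3301 at 3 h, 3415 at 6 h, 3268 at 12 h, 2890 at 48 h, 3181 at 72 h and 65 for late minus early. With the replicate block by tube the mean gave 13463 and 72 h gave 6426, the latter from a single tube with both organs. The replicate block by number gave 13700 and a random tube block 13797 for the mean. Of the named results 7 lost their call and 3 gained one under the tube block, and 3 lost theirs under the number block.

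Of 313 named results 220 kept call and direction in all alternatives run. The 2-fold minimum took 74 calls and the 3′ to 5′ covariate 30. Directions turned with that covariate for AT1G78040 (-0.032), AT2G34480 (-0.018), AT3G10020 (0.38) and GH3.3 (0.21). Without 48 and 72 h they turned for AT1G54410 (0.21) and TPI (0.0096), under quantile normalization for OEP16-3 (0.18) and ICU2 (-0.013), and under median centring for PGY1 (-0.051). The cause was not tested.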

Other observations

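Gene families outside the comparisons above divided between the organs member by member. Of 8 aldehyde dehydrogenases tested 5 were higher in roots and 2 in shoots, beside 51.5% and 29.0% of all probe sets, and both past the 2-fold minimum were shoot genes. ALDH11A3, the non-phosphorylating glyceraldehyde phosphate dehydrogenase of the cytosol, lay between 160.1 and 798 in roots with a median of 344, and between 4062 and 8228 in shoots with a median of 6395 (-4.17 ± 0.10, adjusted p = 1.88e-27), and ALDH3F1 differed by -2.13 ± 0.08. Of 11 genes listed by name as organelle RNA processing factors 7 were higher in shoots, where 29.0% of all probe sets were. In roots 1 was higher, and the median was -0.94. The 3′ to 5′ covariate left 4 called in shoots and 1 in roots. CRR21 and CRR22, which edit plastid ndh transcripts, differed by -2.94 ± 0.23 and -1.58 ± 0.26. CRR41 (-2.57 ± 0.10) and CRR42 (-4.39 ± 0.16), the list's largest shoot excess, share the CRR name but are not RNA processing factors. The counts and median of the list include them. MEF8S, a mitochondrial editing factor, was higher in roots (0.51 ± 0.13), but after quantile normalization no member of the list was called in roots.

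Tetraspanins, small membrane proteins, had 5 of 10 higher in roots and 2 in shoots, near or below the 51.5% and 29.0% of all probe sets, and 3 and 2 under median centring. TET6 lay between 532 and 1005 in roots with a median of 713, and between 5.53 and 83.2 in shoots with a median of 35.9 (4.11 ± 0.17, adjusted p = 4.03e-21). Beta-glucosidases had 5 of 13 on each side, beside 51.5% of all probe sets in roots and 29.0% in shoots. BGLU44 (-2.74 ± 0.11) was higher in shoots and BGLU46 (2.53 ± 0.18) and BGLU15 (2.14 ± 0.09) in roots, all without overlap. Serine carboxypeptidase-like genes had 9 of 17 higher in shoots and 5 in roots (7 and 3 with the 3′ to 5′ covariate), beside 29.0% and 51.5% of all probe sets. The largest differences were root excesses, at scpl28 (2.98 ± 0.21) and scpl40 (2.86 ± 0.25). Among 6 subtilases, SBT1.3 (-2.32 ± 0.09) and SBT3.3 (-1.91 ± 0.29) were higher in shoots and SBT3.12 (0.56 ± 0.13) in roots beside SBT4.12. After quantile normalization 1 subtilase was called in roots and 3 in shoots. None of 7 tubulins passed the 2-fold minimum. TUB1 was higher in roots (1.15 ± 0.10), and TUB5 (-0.85 ± 0.09), TUA1 (-0.60 ± 0.11) and TUA6 (-0.44 ± 0.06) were higher in shoots, the last 3 calls being lost with the 3′ to 5′ covariate.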
